A study of Homo sapiens with 12 samples.

Results

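The protein-coding genes of the cytosolic ribosome were followed across bulk RNA sequencing libraries of Caco-2 spheroids. Members were all rows of the deposited count table that were annotated as protein coding and carried a symbol of the RPL or RPS series, including RPSA, RPLP0, RPLP1, RPLP2 and the paralogs whose symbols end in A, X or L. The rule used no measured value and selected 83 of 48162 genes, of which 33 belonged to the small subunit and 50 to the large subunit. It left out genes such as FAU and GNB2L1, which also encode a ribosomal protein or a ribosome-bound protein, and these were examined as a separate list. Of the 83 members, 79 passed the filter on low counts and were tested among 16733 genes.

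Each cytosolic ribosome carries 1 copy of most of its proteins, so cells keep the supply of the different proteins in balance, and unassembled copies are degraded. Most ribosomal protein mRNAs begin with a cytosine followed by a run of pyrimidines, the 5′ terminal oligopyrimidine (TOP) tract, through which mTOR and LARP1 control their translation and stability. When ribosome production fails, free RPL5 and RPL11 bind MDM2 together with 5S rRNA. Ribosomal proteins are made in every dividing cell and are especially abundant in the proliferating intestinal epithelium.

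Caco-2 is an established human colorectal adenocarcinoma line that forms polarised, enterocyte-like epithelium. Cells at passage 26 were placed in Matrigel and grown for 5 days in DMEM with 20% fetal bovine serum, so that spheroids formed, and the medium was not changed. The exposure lasted 4 h and was to carrier fluid alone (control), methotrexate, lactoferrin, or methotrexate together with lactoferrin, with 3 libraries in each group. Methotrexate is a folate antagonist that inhibits dihydrofolate reductase, and lactoferrin is an iron-binding glycoprotein of milk. Neither doses nor the origin of the replicates (separate wells, cultures or days) could be read from the labels, so p-values measure the spread between these libraries, which may be technical.

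The libraries held 18714054 to 60591667 counts, and the 3 libraries labelled methotrexate were the deepest, with 47459811 to 60591667. Those 3 libraries also stood apart in composition. Their mitochondrial share was 6.67% to 7.54%, against 2.00% to 3.34% in the other 9 libraries, and their TMM scaling factors were 0.852 to 0.884, against 1.01 to 1.08. Epithelial markers of Caco-2 cells were detected in every group, but their summed level was 4521 to 4772 CPM (counts scaled to library size) in the methotrexate libraries and 9544 to 9607 CPM in control, and 14 of 15 tested markers were lower there, with the brush-border gene VIL1 at -1.12 on the log2 scale. Adipocyte markers summed to 18417 to 19221 CPM in the methotrexate libraries against 49.4 to 52.5 CPM in control, with 10 of 10 higher, among them GPD1 at 2999, 2987 and 2766 CPM against 11.1, 13.1 and 12.2 CPM. Fibroblast markers summed to 9582 to 11041 CPM against 106 to 121 CPM, with 10 of 10 higher, among them COL3A1 at 3980, 3626 and 3738 CPM against 1.63, 1.49 and 1.31 CPM. All 5 tested endothelial markers were higher (sums of 10.8 to 11.7 CPM against 2.09 to 2.59 CPM, with EMCN and TEK at 0 in control), while leukocyte markers gave 2 higher and 2 lower (44.4 to 52.1 CPM against 45.7 to 49.2 CPM, with CD68 at 0 in both groups and CD163 at 0 in control). Such levels of fat and connective-tissue genes go against a label of Caco-2 cells alone, so what these 3 libraries contain is in doubt, and they are called methotrexate libraries after their label only. Every comparison that includes the methotrexate libraries carries this difference, and its part in the ribosomal protein values was not tested. In these bulk samples, fewer cells of a type and less RNA per cell cannot be told apart.

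Because of that difference, changes are given on 2 scalings. The main scaling was TMM, which assumes that most genes do not change. The alternative, called epithelial scaling, sets each library by the median ratio of 51 epithelial genes. It assumes that most of these 51 genes do not change. On this scaling 9 of the 51 were themselves called higher and 2 lower in methotrexate against control, against 76.3% and 0.508% of all tested genes. In that comparison epithelial scaling moved the median gene from 0.029 to 0.98 on the log2 scale, so changes of members are also given relative to the median gene. Epithelial scaling moves all genes of a library together. Values relative to the median gene, and the order of genes, therefore differ little between the scalings by construction.

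The first bases of the transcripts are shown because they carry the TOP tract that most members share. It was not found at the annotated start of some members, among them RPS27L and RPL9, which were called higher with methotrexate. RefSeq promoter windows on GRCh38.p14 (250 bases before to 50 after the annotated start) were matched for 64 member genes. Each line gives 30 bases 5′ to 3′ on the gene's own strand, 10 before the annotated start and 20 from it, with the unbroken pyrimidine run at the start in capitals.
RPS3 (chr11:75399508-75399537, plus strand): cgagccacttCCTTTCCTTTCagcggagcg
RPS21 (chr20:62387093-62387122, plus strand): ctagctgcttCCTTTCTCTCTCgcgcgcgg
RPS23 (chr5:82278335-82278364, minus strand): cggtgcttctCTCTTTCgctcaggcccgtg
RPS27 (chr1:153990752-153990781, plus strand): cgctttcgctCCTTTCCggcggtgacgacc
RPSA (chr3:39406710-39406739, plus strand): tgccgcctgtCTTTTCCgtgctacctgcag
RPS6 (chr9:19380217-19380246, minus strand): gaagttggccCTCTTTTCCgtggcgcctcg
RPLP0 (chr12:120201092-120201121, minus strand): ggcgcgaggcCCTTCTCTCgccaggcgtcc
RPL39 (chrX:119791611-119791640, minus strand): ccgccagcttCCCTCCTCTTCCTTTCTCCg
RPS27L (chr15:63157458-63157487, minus strand): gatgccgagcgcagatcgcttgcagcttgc
RPL9 (chr4:39458903-39458932, minus strand): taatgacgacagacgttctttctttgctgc
The runs in these members were 7 bases in RPS23, RPS27 and RPSA, 9 in RPS6 and RPLP0, 11 in RPS3, 12 in RPS21 and 19 in RPL39. RPS27L and RPL9 began with a purine. So did RPS28, RPL10A, RPS4X, RPL4, RPL27, RPS26 and RPL17, whose windows are not shown. Their log2 changes in methotrexate against control on TMM scaling were -0.59, -0.44, -0.33, -0.27, -0.24, -0.11 and 0.09, in that order. A purine start was thus not particular to members called higher. RPL9 had a run of 10 pyrimidines that began 5 bases after the annotated start, whereas the longest run of RPS27L in its first 20 bases was 3.

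A cytosine at the annotated start followed by at least 4 pyrimidines, read on the gene's strand, was present in 46 of 64 member genes (71.9%) and in 5.14% of 27305 genes with a promoter window. Allowing the tract to begin within 5 bases of the annotated start raised these shares to 82.8% of member genes and 25.2% of all genes. The ETS-type motif CCGGAAG, searched on both strands of the whole window, was found in 23 member genes (35.9%) and in 12.2% of all genes. The motif CTCGCGAG was found in 6 member genes (9.38%) and in 1.23% of all genes, and TATAAA in 6 (9.38%) and in 14.0%. These matches describe letters in a window, and the annotated start may not be the start used in Caco-2 cells.

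In the control spheroids the members were abundant and spanned a wide range. Levels were compared between genes per kb of transcript, using the shortest principal coding transcript of GENCODE 29, which was matched for 81 members. Among the 73 matched members with at least 2000 counts over all libraries, the median control level was 1220 CPM per kb, with quartiles of 803 and 1861. RPS3, a small-subunit protein at the mRNA entry channel, was highest at 5309 ± 183 CPM per kb (SD, n = 3), followed by RPS27 at 3851 ± 472 and RPS21 at 3722 ± 316. The order of RPS27 and RPS21 was not resolved, since RPS27 was above RPS21 in control replicates 1 and 2 and below it in replicate 3. RPS16 (3359 ± 156) was below both in each control library. RPS27L was lowest of the 73 at 6.44 ± 0.792 CPM per kb, but its chosen transcript is 6434 bases long, and the long models chosen for RPL37 (7686 bases), RPL27A (4916 bases), RPL37A (3647 bases) and RPS23 (3437 bases) lower their values in the same way.

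**Figure D1:**
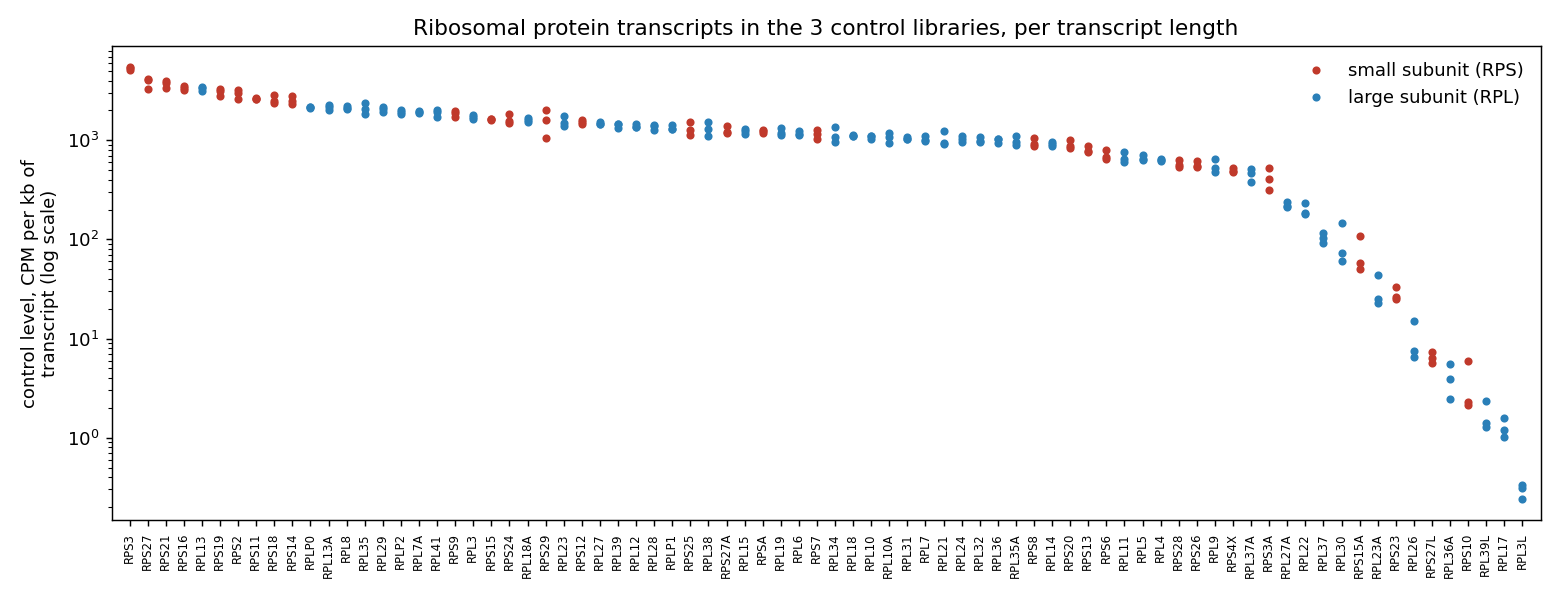
Control level of the named members in CPM per kb of transcript (log axis), 1 point for each of the 3 control libraries, ordered by mean; red marks small-subunit and blue large-subunit members. Most of the members lie above 500 CPM per kb, and a tail on the right, from RPL30 and RPS15A down to RPL3L, lies far lower.

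Several of the lowest rows belong to paralogs or overlap other rows. Over all 12 libraries 10 members had under 2000 counts, and 6 of these 10 overlapped another protein-coding row on the same strand, against 5 of the 73 members above that limit. RPL17 (288 counts), RPL36A (444 counts) and RPS10 (478 counts) encode core ribosomal proteins, and each of their rows overlapped another protein-coding row that was itself at 0 counts. A second row named RPL26 held 9 counts and overlapped the first, which held 1481. RPL10L was at 0 in every library, where 3 counts correspond to 0.0495 to 0.160 CPM. The labels do not say how fragments that fit several rows were counted, so the low values of RPS10, RPL17, RPL36A and RPL26 are not read as expression levels.

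Ribosomal protein genes have many processed pseudogenes, and 627 rows named as pseudogenes of members held 334530 counts, or 1.43% of their sum with the members. The share was largest for RPL23A at 38.8%, RPL17 at 38.2%, RPS10 at 28.4% and RPS2 at 22.6%. Adding these counts to the parent genes gave 58 called members in methotrexate against control in place of 57, with 57 shared in the same direction.

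Replicate libraries agreed closely for most members. The pooled within-group SD of log2 CPM had a median of 0.13 over the 79 tested members, against 0.20 over all tested genes and 0.13 over the 2307 tested genes above 100 CPM. The abundant RPS29, a zinc-binding protein of the small-subunit head, was among the most variable at 0.58. Its level was 605, 477 and 316 CPM in control, 344, 202 and 401 CPM with lactoferrin, 516, 607 and 203 CPM with both agents, and 261, 288 and 410 CPM with methotrexate. The 4 groups overlapped, so no group difference in RPS29 could be resolved. RPL30 at 0.49, RPS15A at 0.42, RPL23A at 0.41 and RPL39 at 0.35 were also variable.

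Ribosomal protein genes took a smaller share of the methotrexate libraries than of any other library. Members held 8.72%, 8.21% and 7.65% of all counts in control, 7.86%, 7.60% and 7.55% with lactoferrin, and 8.14%, 7.67% and 7.07% with both agents. They held 5.03%, 5.02% and 5.18% in the methotrexate libraries, below every other library. Both subunits showed the same order, with small-subunit shares of 1.96% to 2.04% in methotrexate against 3.22% to 3.69% in control, and large-subunit shares of 3.03% to 3.14% against 4.43% to 5.04%. A share is relative to everything else in the library, and the marker sums above moved with it.

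**Figure D2:**
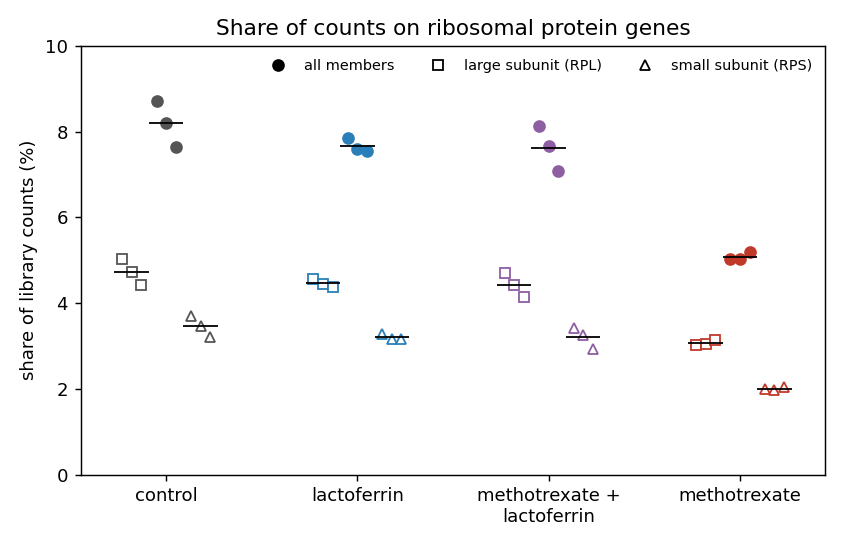
Share of all counts in a library (percent) that fell on ribosomal protein genes, by group, with 1 symbol per library and a line at the mean of 3; circles are all 83 members, squares the large and triangles the small subunit. The methotrexate libraries lie at 5.02% to 5.18% and the other 9 between 7.07% and 8.72%.

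The comparison of methotrexate with control asked which members changed after 4 h of the folate antagonist alone. On TMM scaling 53 of 79 tested members fell, 4 rose and 22 were not called (edgeR quasi-likelihood test, Benjamini-Hochberg adjusted p under 0.05), whereas on epithelial scaling 0 fell and 70 rose. Of all tested genes, 29.1% were called lower and 35.4% higher on TMM scaling, and 0.508% lower and 76.3% higher on epithelial scaling, so most genes rise on that scaling. The median member was at -0.40 (log2) on TMM scaling and at 0.55 on epithelial scaling. Relative to the median tested gene the members lay at -0.43 with TMM and -0.42 with epithelial scaling, and 72 of 79 members were below the median gene on both. Because epithelial scaling moves all genes together, this match was largely fixed in advance and adds no evidence. In TMM-scaled CPM, the 3 methotrexate libraries did not overlap with control in 57 members that were lower and 3 that were higher. The shares of all tested genes were 32.9% and 38.6%. Overlap was not examined on epithelial scaling. On TMM scaling, by the study's own rule of a change over 2-fold with adjusted p under 0.01, 0 members fell and 2 rose. The rule was not applied on epithelial scaling, and the count is given here without its share over all tested genes.

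**Figure D3:**
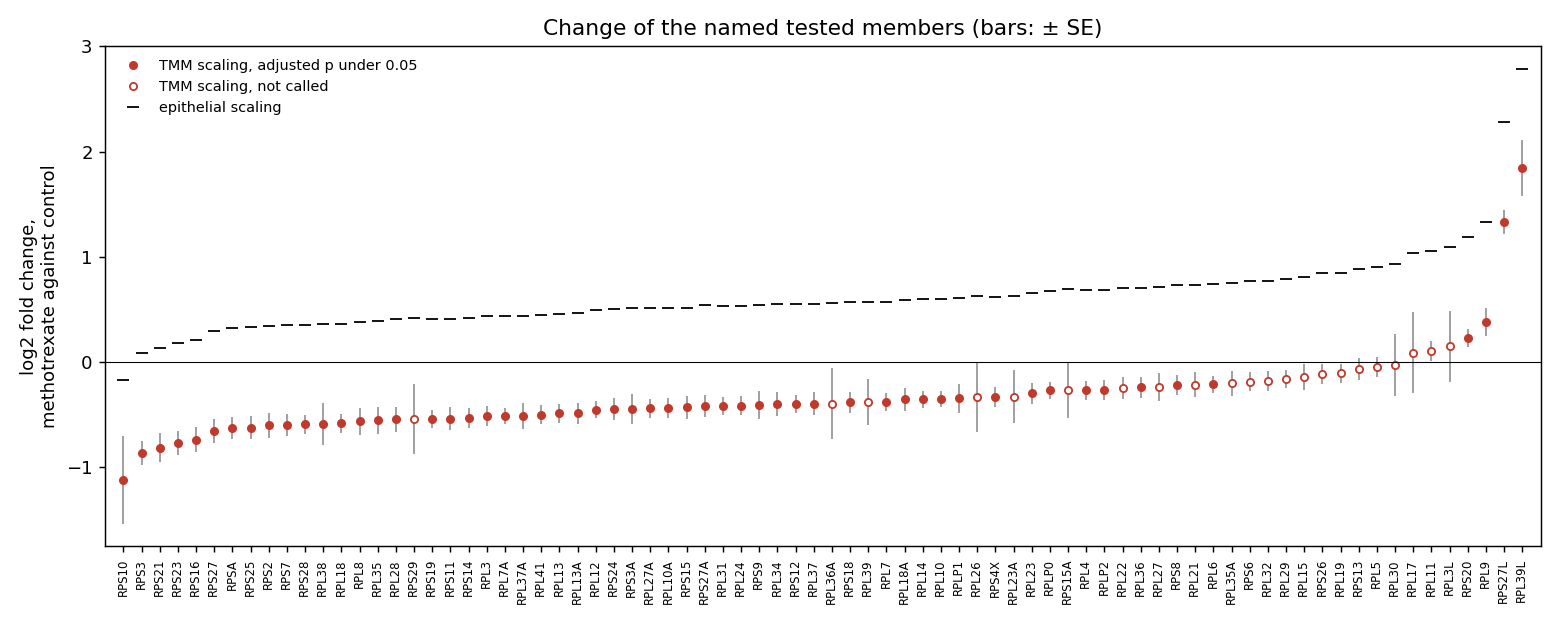
Log2 fold change of the named tested members in methotrexate against control, ordered by size; circles with bars are TMM-scaled values ± SE, filled where the edgeR adjusted p was under 0.05, and dashes are the same genes on epithelial scaling. On TMM scaling most members lie below 0 and on epithelial scaling all but RPS10 lie above it, while RPL39L and RPS27L stand highest on both.

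Small-subunit members lay lower than large-subunit members, as a description, and this order is kept between the scalings by construction. On TMM scaling 24 of 31 tested small-subunit members fell, with a median of -0.49, and 29 of 48 large-subunit members fell, with a median of -0.35, while on epithelial scaling 25 and 45 rose, with medians of 0.46 and 0.60. Over all tested genes 29.1% fell on TMM scaling and 76.3% rose on epithelial scaling. The difference between the subunits was not tested.

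RPS3 gave the largest fall among the abundant members. Its level (ENSG00000149273, chr11:75110530-75133324 on hg19) was 4702, 4675 and 4416 CPM in control and 2641, 2492 and 2436 CPM with methotrexate. The groups did not overlap, and the log2 fold change was -0.87 ± 0.11 (SE; edgeR adjusted p = 5.11e-06) on TMM scaling and 0.082 on epithelial scaling. RPS21, a small protein on the solvent side of the small subunit, was at 1365, 1318 and 1158 CPM in control and at 767, 702 and 715 CPM with methotrexate. It changed by -0.81 ± 0.14 (edgeR adjusted p = 7.73e-05) on TMM scaling and by 0.13 on epithelial scaling.

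RPS23, a protein of the decoding centre, was at 114, 91.0 and 85.3 CPM in control and at 55.6, 53.3 and 61.2 CPM with methotrexate, without overlap. Its log2 change was -0.77 ± 0.11 (edgeR adjusted p = 1.5e-05) on TMM scaling and 0.18 on epithelial scaling. RPS16, whose tail reaches the peptidyl tRNA, fell by 0.74 on TMM scaling (edgeR adjusted p = 4.93e-05), with 1964, 1890 and 1790 CPM in control against 1249, 1122 and 1016 CPM, and stood at 0.21 on epithelial scaling. The zinc-finger protein RPS27 changed by -0.66 and 0.29 on these scalings, the laminin-receptor homolog RPSA by -0.63 and 0.32, and RPS2, another protein of the mRNA entry channel, by -0.60 and 0.35. All 3 were called lower with TMM and none was lower with epithelial scaling.

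RPS6, the substrate of S6 kinase, was not called lower. It was at 1101, 952 and 901 CPM in control and at 831, 857 and 909 CPM with methotrexate, with overlap, and its log2 change was -0.19 ± 0.09 on TMM scaling (edgeR adjusted p = 0.0911), although the adjusted p was 0.0427 without control replicate 3; on epithelial scaling it was 0.77. RPS10, of the small-subunit head, had the lowest log2 value at -1.12 ± 0.42 (edgeR adjusted p = 0.0274), but it rested on 33 to 76 counts in control and 40 to 54 with methotrexate. Without control replicate 1 the change was -0.50 and its adjusted p 0.295.

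Among large-subunit members the falls on TMM scaling were smaller and the values tight. RPLP0, the base of the stalk that recruits elongation factors, was at 2583, 2656 and 2655 CPM in control and at 2197, 2209 and 2141 CPM with methotrexate. The groups did not overlap, and RPLP0 changed by -0.27 ± 0.08 (edgeR adjusted p = 0.0105) on TMM scaling and by 0.68 on epithelial scaling. Its stalk partners RPLP1 and RPLP2 changed by -0.35 and -0.26 on TMM scaling (edgeR adjusted p = 0.0358 and 0.0262) and by 0.60 and 0.69 on epithelial scaling. Leaving out any 1 of the 6 control and methotrexate libraries ended the RPLP1 call (adjusted p of 0.0501 to 0.0931), and leaving out control replicate 1 or 2 or methotrexate replicate 1 or 3 ended the RPLP2 call (0.0534 to 0.0832).

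RPL3, next to the peptidyl transferase centre, was at 2574, 2506 and 2344 CPM in control and at 1732, 1751 and 1712 CPM with methotrexate, a log2 change of -0.52 ± 0.10 on TMM scaling (edgeR adjusted p = 0.000224) and of 0.43 on epithelial scaling. RPL13A changed by -0.49 and 0.46 on these scalings, and RPL10, a late-joining protein of the large subunit, by -0.35 and 0.60. Both were called lower on TMM scaling. RPL39, a short protein lining the exit tunnel, did not overlap between the groups (583, 534 and 588 CPM against 446, 428 and 438 CPM) but was not called on TMM scaling, at -0.38 ± 0.22 (edgeR adjusted p = 0.143), and stood at 0.57 on epithelial scaling. In a fit of control and methotrexate alone, which leaves out the wide spread of RPL39 in the other groups, the adjusted p was 0.00147.

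RPL5 and RPL11, the partners of 5S rRNA in the complex that binds MDM2, were not among the members that fell. RPL5 was at 730, 652 and 668 CPM in control and at 636, 644 and 699 CPM with methotrexate, with a log2 change of -0.05 ± 0.10 on TMM scaling (edgeR adjusted p = 0.656) and of 0.90 on epithelial scaling. RPL11 was at 781, 661 and 617 CPM against 683, 763 and 768 CPM, with a change of 0.10 ± 0.10 (edgeR adjusted p = 0.366) and of 1.06. Both genes overlapped between the groups.

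RPL39L, RPS27L, RPL9 and RPS20 were called higher on both scalings. RPS27L is a paralog of RPS27, and the coding sequences of the pair were 77.8% identical. It was at 46.7, 41.2 and 36.5 CPM in control, 34.8, 36.6 and 30.8 CPM with lactoferrin, 40.7, 38.5 and 36.0 CPM with both agents, and 93.8, 108 and 110 CPM with methotrexate. The methotrexate libraries lay above all 9 others, and the gene (ENSG00000185088, chr15:63418071-63450220 on hg19) rose 2.51-fold, a log2 change of 1.33 ± 0.11 (edgeR adjusted p = 4.06e-08), and by 2.28 on epithelial scaling. Within the same libraries RPS27 moved the other way on TMM scaling, from 1490, 1471 and 1187 CPM in control to 875, 862 and 893 CPM.

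RPL39L, a paralog of RPL39 best known from male germ cells, had the largest rise but few counts. It held 20 to 32 counts per control library and 155 to 225 per methotrexate library, or 1.53, 0.924 and 0.845 CPM against 3.82, 4.36 and 3.59 CPM. The groups did not overlap, and the log2 change was 1.84 ± 0.26 (edgeR adjusted p = 1.6e-05) on TMM scaling and 2.79 on epithelial scaling. Its coding sequence was 94.8% identical to that of RPL39, which stood at 428 to 446 CPM in the same libraries, so fragments assigned to the wrong copy cannot be told apart from its own.

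RPL9, of the large subunit near the factor-binding site, was at 484, 397 and 362 CPM in control and at 509, 536 and 573 CPM with methotrexate. It changed by 0.38 ± 0.13 (edgeR adjusted p = 0.0184) on TMM scaling and by 1.33 on epithelial scaling, and the TMM call was lost without control replicate 2 (adjusted p = 0.0664), control replicate 3 (0.0983) or methotrexate replicate 3 (0.0561). RPS20 overlapped between the groups (627, 550 and 519 CPM against 625, 679 and 689 CPM) and changed by 0.23 ± 0.09 (edgeR adjusted p = 0.0277), a call lost without control replicates 2 (0.0917) or 3 (0.133), or methotrexate replicates 2 (0.0828) or 3 (0.0752). RPL3L, the paralog of RPL3 found in striated muscle, held 11 to 40 counts in the libraries of these 2 groups and was at 0.15 ± 0.34 (edgeR adjusted p = 0.714) on TMM scaling and at 1.10 on epithelial scaling. RPL10L, a testis paralog of RPL10, was at 0 throughout.

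**Figure D4:**
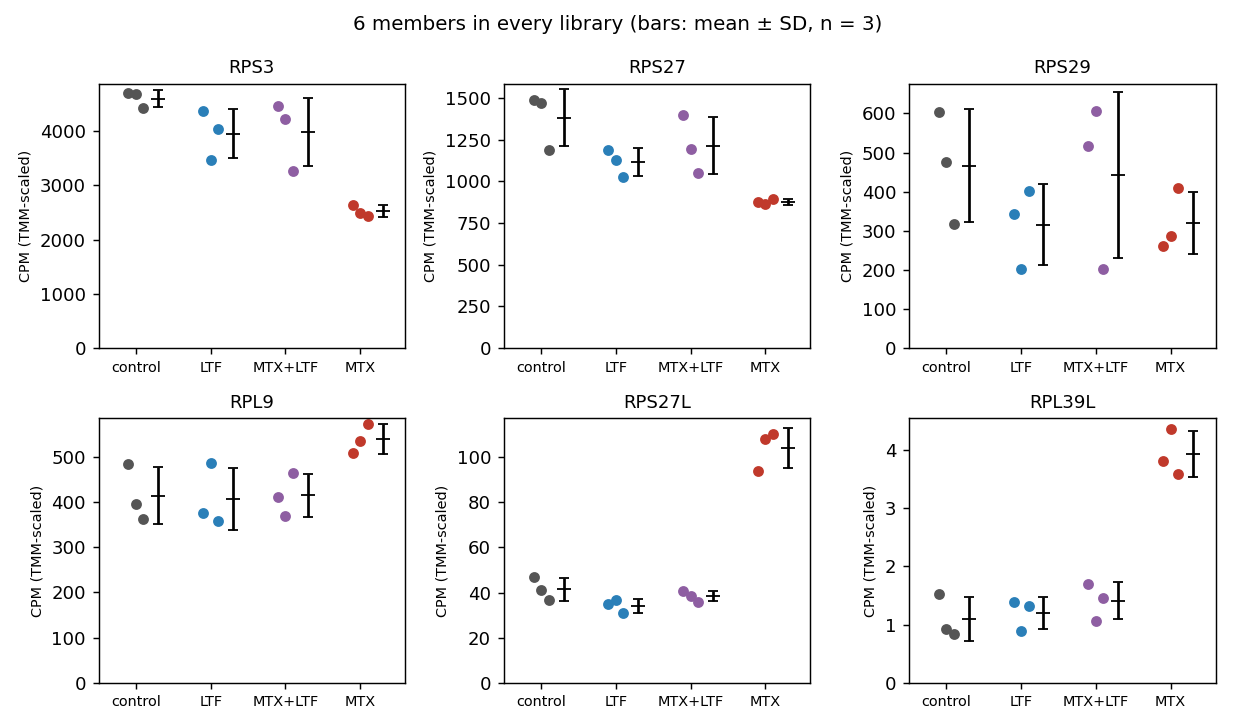
TMM-scaled CPM of RPS3, RPS27, RPS29, RPL9, RPS27L and RPL39L in every library (points) with mean ± SD of 3 libraries (bars); LTF is lactoferrin and MTX methotrexate. RPS3 and RPS27 are lowest with methotrexate on this scaling (log2 changes of 0.082 and 0.29 against control on epithelial scaling), RPS29 overlaps between all groups, and RPS27L (93.8 to 110 CPM) and RPL39L (3.59 to 4.36 CPM) are highest with methotrexate.

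The changes are described by TOP tract. Among the members with a promoter window that were tested, 53 with a tract within 5 bases of the start had a median log2 change of -0.44 on TMM scaling, with 0 rising and 41 falling, and of 0.51 on epithelial scaling, with 45 rising and 0 falling. The 10 without one had a median of -0.18 on TMM scaling, with 2 rising (RPS27L and RPL9) and 3 falling (RPS15, RPS4X and RPL6), and of 0.77 on epithelial scaling, with 9 rising and 0 falling. Over all tested genes 29.1% fell and 35.4% rose on TMM scaling, and 0.508% and 76.3% on epithelial scaling. RPL39L and RPS20, which were also called higher on TMM scaling, had no matched promoter window and are in neither group. The counts of rising members by tract therefore leave them out. The 2 groups of members were not compared by a test. RPL9 counts as without a tract although its run of 10 pyrimidines begins 5 bases after the annotated start, because the first cytosine of that run lies past the limit.

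Other genes of the translation machinery were examined from lists, whose counts stand against 29.1% of all tested genes lower and 35.4% higher on TMM scaling, and 0.508% lower and 76.3% higher on epithelial scaling. Of 7 genes for ribosomal or ribosome-bound proteins outside the symbol rule, 1 fell on TMM scaling and 0 rose, while 7 rose on epithelial scaling. The one that fell was GNB2L1, which encodes the scaffold RACK1, at -0.37 ± 0.08 on TMM scaling (edgeR adjusted p = 0.000838) and 0.58 on epithelial scaling. FAU, which encodes a fusion of a ubiquitin-like protein with a ribosomal protein, was at -0.40 (edgeR adjusted p = 0.0801) on TMM scaling and at 0.56 on epithelial scaling. It was called with the compared groups alone (0.0301). RPL36AL, RPL22L1, RPL26L1 and RPL7L1 were at 0.013, -0.09, -0.08 and -0.11 on TMM scaling, none called, and at 0.97, 0.86, 0.86 and 0.83 on epithelial scaling.

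Of 17 tested non-ribosomal TOP mRNAs, 8 fell and 0 rose on TMM scaling (median -0.19), while 16 rose on epithelial scaling. EEF1B2, an exchange factor of elongation, was at 673, 626 and 678 CPM in control and 422, 402 and 437 CPM with methotrexate, a log2 change of -0.65 (edgeR adjusted p = 8.41e-06) on TMM scaling and 0.30 on epithelial scaling. The RNA-binding protein gene HNRNPA1 changed by -0.75 and 0.20. Of 10 host genes of snoRNAs with TOP starts, 5 fell and 2 rose on TMM scaling, with SNHG15 at -0.65 and SNHG5 at 0.56, and 8 rose on epithelial scaling, where SNHG15 was at 0.29.

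Assembly factors, which build ribosomes from rRNA and protein, had medians near those of the ribosomal proteins on both scalings. Of 41 assembly factors, 29 fell and 2 rose (median -0.42), while 33 rose on epithelial scaling (median 0.53). FBL, the methyltransferase of box C/D particles, fell from 311, 274 and 284 CPM to 167, 150 and 154 CPM (-0.88, edgeR adjusted p = 2.96e-07, and 0.064 on epithelial scaling), and the rRNA acetyltransferase gene NAT10 changed by -0.96 and by -0.013 on epithelial scaling, where it was not called. Of 14 RNA polymerase I genes, 6 fell and 1 rose on TMM scaling (median -0.22) and 11 rose on epithelial scaling (median 0.72). The core subunit gene POLR1B was at -0.79 and 0.16 on the 2 scalings, and POLR1E was at 0.87 on TMM scaling.

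Translation factors were mixed. Of 28 initiation factors, 13 fell and 5 rose on TMM scaling (median -0.20), while 27 rose on epithelial scaling. EIF1, which guards start-codon choice, rose from 228, 226 and 214 CPM to 415, 428 and 426 CPM (0.93, edgeR adjusted p = 2.84e-07), and EIF6, which keeps free large subunits from joining, was at -0.80 and 0.14 on the 2 scalings. Of 12 elongation, termination and recycling factors, 3 rose and 2 fell on TMM scaling, the falls being EEF2K, the inhibitory kinase of eEF2, at -0.61 and EEF1A2 at -0.76, which stood at 0.34 and 0.19 on epithelial scaling, where 11 of 12 rose. Of 16 genes of growth signalling to the ribosome, 4 rose and 4 fell on TMM scaling, with the mTOR activator RHEB at 0.48, and 14 rose on epithelial scaling. All of these lists share the methotrexate libraries and therefore the marker differences given above.

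**Figure D5:**
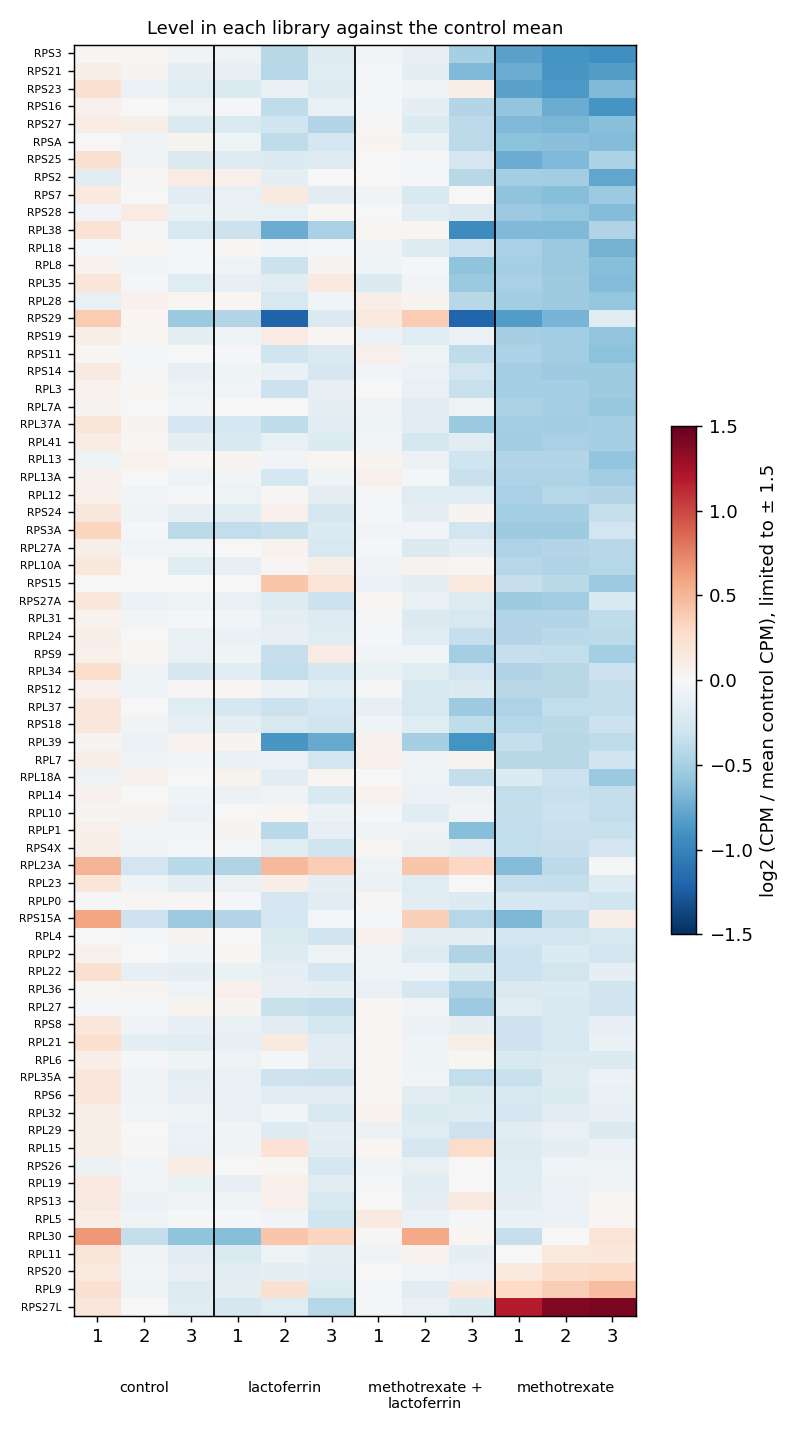
Log2 of CPM over the mean control CPM (TMM scaling, limited to ± 1.5) for the named members with at least 2000 counts, 1 column for each of the 12 libraries. The 3 methotrexate columns are blue (lower) for most members, a direction that epithelial scaling reverses, and red for RPS27L, and single libraries, such as methotrexate with lactoferrin replicate 3 and lactoferrin replicate 2 for RPS29, deviate for a few members.

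Lactoferrin alone left every member uncalled. The comparison with control called 0 of 79 members and 0% of all tested genes in either direction with edgeR, and DESeq2 called 0 members and 1 gene. Values leaned downward, with a member median of -0.12 against 0.0047 for all tested genes, and 71 of 79 members were below the median gene. That count was the same with each scaling, which moves all genes together. At an unadjusted p under 0.05, edgeR gave 9 members, all lower, and DESeq2 gave 10, all lower, against 3.75% and 4.14% of all tested genes. Groups did not overlap for 12 members that were lower and 1 that was higher, against 4.91% and 5.18% of all tested genes.

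The lowest values under lactoferrin included a row with few counts and several variable members. RPL26 was at -0.68 ± 0.35, RPS29 at -0.56 ± 0.33, RPL38 at -0.51 ± 0.20, RPL39 at -0.47 ± 0.22 and RPS27 at -0.31 ± 0.11 (SE), each with an edgeR adjusted p of 1. RPL38, known for its part in translating certain developmental mRNAs, was at 660, 560 and 478 CPM in control and at 452, 337 and 404 CPM with lactoferrin, without overlap. RPL39 was at 583, 534 and 588 CPM in control and at 584, 310 and 336 CPM with lactoferrin, so that 1 lactoferrin library was at the control level. With no filter on low counts, RPS29, RPL38 and RPL39 were called lower (edgeR adjusted p = 0.00224, 0.006 and 0.0202). The share of all genes called in that fit is not given here, so these calls are not read as a response to lactoferrin.

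At the upper end RPL3L was at 0.72 ± 0.35, RPS15 at 0.22 ± 0.11, RPL23A at 0.19 ± 0.25, RPL39L at 0.14 ± 0.30 and RPL30 at 0.11 ± 0.30. RPL3L did not overlap, with 0.527, 0.683 and 0.719 CPM in control and 1.15, 0.786 and 1.27 CPM with lactoferrin, but this rested on 11 to 17 counts against 16 to 25. RPS15, of the small-subunit head, was at 831, 833 and 825 CPM in control and at 826, 1110 and 953 CPM with lactoferrin, with overlap.

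Methotrexate given together with lactoferrin also left every member uncalled against control. Of all tested genes 0.0299% were called higher and 0% lower with edgeR, and DESeq2 called 12 genes and 0 members. The member median was -0.11, against 0.0096 for all tested genes. At an unadjusted p under 0.05, edgeR gave 5 members and DESeq2 6, all lower, against 3.53% and 3.63% of all tested genes. No overlap between the groups was seen for 6 members that were lower and 1 that was higher, against 3.65% and 4.19% of all tested genes.

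Among the lowest values here were RPL36A at -1.11 ± 0.38, RPS10 at -0.80 ± 0.44, RPL39 at -0.39 ± 0.22, RPL26 at -0.30 ± 0.34 and RPL37 at -0.30 ± 0.11 (SE, edgeR adjusted p of 1 for each). RPL36A rested on 13 to 22 counts with both agents and on 26 to 50 in control, without overlap. RPL37 was at 887, 797 and 702 CPM in control and at 730, 671 and 543 CPM with both agents, with overlap. The highest values were 0.58 ± 0.35 for RPL3L, 0.37 ± 0.29 for RPL39L, 0.23 ± 0.25 for RPL23A, 0.23 ± 0.30 for RPL30 and 0.03 ± 0.12 for RPL15. The libraries with both agents held adipocyte markers at 43.2 to 51.5 CPM and fibroblast markers at 109 to 119 CPM in sum, near the control range. Their epithelial markers summed to 8541 to 9414 CPM, against 9544 to 9607 CPM in control. Endothelial markers summed to at least 3.35 CPM in each of these libraries, against at most 2.59 CPM in control. All 5 tested endothelial markers were above 0 on the log2 scale (median 1.26), but none was called. The part of these markers in the member values was not tested.

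The comparison of both agents with methotrexate alone shares the methotrexate libraries with the first comparison, so its values are given side by side and not as separate evidence. On TMM scaling 36 of 79 members were higher with both agents and 4 were lower, whereas on epithelial scaling 0 were higher and 73 lower. Among all tested genes 0.843% were higher and 73.9% lower on epithelial scaling. On TMM scaling 28.8% were higher and 34.4% lower, or 63.2% in either direction against 40 of 79 members. In TMM-scaled CPM, the groups did not overlap for 41 members that were higher and 4 that were lower, against 30.2% and 36.3% of all tested genes. The member median was 0.26, and relative to the median gene it was 0.27 on TMM and 0.26 on epithelial scaling.

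RPS23 was highest at 0.78 ± 0.11 (edgeR adjusted p = 1.4e-05) on TMM scaling, with 94.6, 93.2 and 104 CPM with both agents against 55.6, 53.3 and 61.2 CPM with methotrexate. RPS3 followed at 0.66 ± 0.11 (edgeR adjusted p = 8.79e-05), with 4453, 4221 and 3264 CPM against 2641, 2492 and 2436 CPM. Neither overlapped between the groups, and on epithelial scaling they stood at -0.12 and -0.24. RPS27L, at -1.44 ± 0.11 (edgeR adjusted p = 1.64e-08), and RPL39L, at -1.47 ± 0.26 (edgeR adjusted p = 0.00012), were lowest, and they were lower on both scalings.

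Against lactoferrin alone, both agents gave 0 called members of 79, with 0.0179% of all tested genes called higher and 0% lower with edgeR, and DESeq2 called 0 members and 7 genes. The member median was 0.022 against 0.0064 for all tested genes. At an unadjusted p under 0.05, edgeR gave 3 members and DESeq2 2, all lower, against 3.37% and 3.36% of all tested genes. The groups did not overlap for 3 members that were higher and 3 that were lower, against 3.67% and 3.22% of all tested genes. RPS29 and RPL26 were highest at 0.49 ± 0.33 and 0.38 ± 0.36, and RPL36A and RPS10 lowest at -0.96 ± 0.39 and -0.72 ± 0.44 (SE, edgeR adjusted p of 1 for each). RPS29 was called with no filter on low counts (edgeR adjusted p = 0.0154), a call given without the share of all genes called in that fit.

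The interaction asked whether the methotrexate effect differed by the presence of lactoferrin, as both agents minus lactoferrin, less methotrexate minus control. On TMM scaling 43 of 79 members had a positive interaction and 2 a negative one (edgeR adjusted p under 0.05), against 20.6% and 26.1% of all tested genes, whereas on epithelial scaling 0 were positive and 60 negative, against 0.353% and 65% of all tested genes. The member median was 0.39, and relative to the median gene it was 0.42 on TMM and 0.41 on epithelial scaling. RPS23 was at 0.95 ± 0.15 (edgeR adjusted p = 0.000135) on TMM scaling and at 0.030 on epithelial scaling, where it was not called. RPS29 had the highest value, 1.03 ± 0.47, without being called (edgeR adjusted p = 0.0843), although it was called without methotrexate with lactoferrin replicate 3 (adjusted p = 0.00506), without control replicate 3 (0.0463) or without methotrexate replicate 3 (0.0481). RPS27L and RPL39L were negative at -1.16 ± 0.16 and -1.61 ± 0.40 (edgeR adjusted p = 2.67e-05 and 0.00386). The 43 positive calls became 28 without methotrexate with lactoferrin replicate 1.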

How the data were processed

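The deposited table held whole-number counts per gene for 12 libraries, with gene types, symbols and hg19 coordinates, not normalised by the authors as far as the values show. The processing tools were CASAVA, STAR and DESeq2 with hg19, per the submitters' processing notes. Their versions, the counting program, strandedness, and whether a count is a read or a pair were not given in the sources used here, so overlapping and near-identical genes are uncertain. Read pairs without molecular identifiers are not independent molecules, so floors of 3 counts cover counting error only.

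Members and lists were chosen with earlier results of these data known. In R 4.3.3, edgeR 4.0.16 was run on the counts with filterByExpr (16733 of 48162 genes kept, 15233 being 0 throughout), TMM scaling, 1 mean per group over all 12 libraries (8 residual degrees of freedom, biological coefficient of variation 12.9%) and the quasi-likelihood F test. P-values were adjusted by the Benjamini-Hochberg method over all tested genes within each of 6 comparisons and called under 0.05. CPM values are TMM-scaled, and log2 fold changes come from the model with their SE. The procedure was also run on simulated data in which few genes changed, in random directions, from control proportions. The methotrexate libraries differ from that setting in composition, so the simulation cannot decide between the scalings.

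Named members were the 5 highest and 5 lowest log2 changes in each comparison with control, 2 and 2 in the others, the 5 highest and 5 lowest mean levels, fixed paralog and stalk genes, and from each other list the 2 genes with the lowest p; further members named for spread, counts, overlap or promoter windows were chosen after their values were seen. Alternatives were RLE scaling, epithelial scaling on 51 genes, DESeq2 1.42.0, no filter on low counts, the replicate block, fits of the compared groups only, pseudogene counts added to their parents, each library left out in turn, and the study's rule of a 2-fold change with adjusted p under 0.01. Promoter windows came from RefSeq (GRCh38.p14). Transcript lengths came from GENCODE 29, matched by symbol without use of coordinates. Protein sequences were not used here, and some genes are not reported here by name, in the text or the plots.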

Additional observations from a re-analysis of the deposited data

Results flagged for a closer look

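The difference between libraries with and without the methotrexate label was not the same in the presence and absence of lactoferrin for many ribosomal protein genes, by a test of the difference itself, the interaction term of the edgeR quasi-likelihood fit. On TMM scaling 43 members had a positive and 2 a negative interaction, against 20.6% and 26.1% of all tested genes. On epithelial scaling 0 were positive and 60 negative, against 0.353% and 65% of all tested genes. The RPS23 value on that scaling was 0.030 (edgeR adjusted p = 0.914). On TMM scaling RPS23 was at 0.95 on the log2 scale, with methotrexate against control at -0.77 and both agents against lactoferrin at 0.18. RPS27L was at -1.16, with 1.33 and 0.17 in those comparisons, and RPL39L was at -1.61, with 1.84 and 0.24. The adipocyte and fibroblast marker sums moved with this term, since they were high only in the 3 methotrexate libraries of the 12, and their part in it was not tested.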

How the results depend on the processing

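The direction of most members depended on the scaling in the 3 comparisons that used the methotrexate libraries. On epithelial scaling, methotrexate against control gave 70 members higher and 0 lower, both agents against methotrexate 0 higher and 73 lower, and the interaction 0 positive and 60 negative. Of all tested genes, the shares in the same order were 76.3% and 0.508%, 0.843% and 73.9%, and 0.353% and 65%. The log2 changes of named genes in methotrexate against control then became RPS16 0.21, RPS23 0.18, RPS21 0.13, RPS3 0.082, RPS2 0.35, RPLP0 0.68, RPL13A 0.46, RPL3 0.43, RPL10 0.60, RPL39 0.57, RPS27 0.29, RPL5 0.90, RPS6 0.77, RPSA 0.32, RPLP1 0.60, RPLP2 0.69, FAU 0.56, GNB2L1 0.58, RPL22L1 0.86, RPL26L1 0.86, RPL7L1 0.83, EEF1B2 0.30, HNRNPA1 0.20, SNHG15 0.29, EIF6 0.14, EEF2K 0.34, EEF1A2 0.19, FBL 0.064 and POLR1B 0.16. In both agents against methotrexate RPS23 became -0.12 and RPS3 -0.24. The cause was not tested, beyond the construction of the scaling, which moves all genes together. Of the members called on both scalings, 4 kept their direction in methotrexate against control.

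On TMM scaling the rule of a 2-fold change with adjusted p under 0.01 gave 2 members higher and 0 lower in methotrexate against control. It gave 0 higher and 2 lower in both agents against methotrexate, and 0 positive interactions. The 2 members with a negative interaction, RPS27L at -1.16 and RPL39L at -1.61, also met the rule. These counts are given without their share over all tested genes. No filter on low counts gave 3 members lower with lactoferrin against control and 1 higher in both agents against lactoferrin. The cause was not tested, and these counts too are given without the share of all genes called in that fit. RLE scaling, DESeq2, added pseudogene counts and fits of the compared groups only kept each count of called members within 1.5 times its value.

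Leaving out 1 library at a time, methotrexate against control gave 2 to 4 members higher (2 without control replicate 2, control replicate 3 or methotrexate replicate 3) and 44 to 55 lower. Over all tested genes these fits gave 5589 to 6288 higher and 4341 to 5193 lower. Both agents against methotrexate gave 30 to 45 members higher and 3 to 5 lower, against 4375 to 4915 and 5406 to 5980 of all tested genes. The interaction gave 28 to 48 members positive, with 28 without methotrexate with lactoferrin replicate 1, and 2 to 3 negative. Over all tested genes it gave 2963 to 3665 positive and 4016 to 4551 negative. The other 3 comparisons gave 0 called members throughout.

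The labels number replicates alike in each group, but same-numbered libraries did not deviate together: over 18 pairs the correlation ran from -0.22 to 0.12, with 2 above 0.1. The replicate numbers were therefore not taken as a pairing. With the replicate block, methotrexate against control gave 56 called members in place of 57, both agents against methotrexate 39 in place of 40, and the interaction 39 in place of 45.

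Depth limits the rows under 2000 counts, and 3 libraries a group limit the rest.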
